A study of Homo sapiens with 6 samples.

Results

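Genes of the proteasome were compared between AGS cells transfected with siRBM8A and AGS cells transfected with the control siNC. AGS is an established human gastric adenocarcinoma line. Members were all genes of the deposited table whose symbol consists of PSMA, PSMB, PSMC, PSMD, PSME, PSMF or PSMG and a number, which gave 48 of 58735 genes. The 5 interferon-inducible members PSMB8, PSMB9, PSMB10, PSME1 and PSME2 were kept apart from the 43 others, called constitutive here. Each group held 3 libraries labelled as biological replicates, numbered 1 to 3. All 6 cultures carry a wild type genotype label, received siRNA with Lipofectamine and were collected 48 h later, after which polyadenylated RNA was sequenced. The siRNAs therefore act in every transfected cell of 1 line, and no untransfected culture was analysed here. The labels name no interferon treatment in either group. Levels are in FPKM, fragments scaled to exon length and to the fragments mapped in the library. The length counts all annotated exons of a gene, so levels and ratios between genes depend on that annotation.

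The proteasome is the protease that degrades ubiquitin-tagged proteins in the cytosol and nucleus. Its barrel-shaped core particle is built from alpha rings (PSMA genes) around beta rings (PSMB genes), and the beta subunits PSMB5, PSMB6 and PSMB7 carry the catalytic sites. A regulatory particle of ATPases (PSMC genes) and other subunits (PSMD genes) binds, unfolds and feeds substrates into the core, and the PSMG proteins with PSMD5, PSMD9 and PSMD10 help assembly. Interferon-gamma induces PSMB8, PSMB9 and PSMB10, which take the places of PSMB5, PSMB6 and PSMB7 in the immunoproteasome, and PSME1 and PSME2, which form an activator ring on the core. Epithelial cells, those of the stomach included, use the products for presentation on HLA class I molecules. The transcription factor NFE2L1, also called NRF1, raises the constitutive genes when proteasome capacity falls. RBM8A, the protein Y14, is a core subunit of the exon junction complex that marks spliced messenger RNA.

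The targeted gene checked the labels. RBM8A stood at 15.3, 13.2 and 14.8 FPKM in siNC and at 3.25, 2.23 and 3.38 FPKM in siRBM8A, 20.5% of the control mean. Its log2 fold change was -1.97 with a standard error of 0.14 and a limma adjusted p of 0.00544. Without siRBM8A replicate 3 the adjusted p was 0.0544, at a log2 fold change of -2.05. Libraries held 14838527 to 16561306 fragments. The epithelial markers EPCAM, KRT8, KRT18 and KRT19 stood between 187 and 713 FPKM in every library, while PTPRC of leukocytes was listed at 0 in all 6. CD3E of T cells, PECAM1 of endothelium and ALB of liver stood at 0.0634 FPKM or less, and the fibroblast gene COL1A1 at 3.41 to 4.64 FPKM with overlapping groups. In bulk samples, fewer cells of a type and less RNA per cell cannot be told apart.

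The promoters of 6 members are shown because their genes carry the values described next: the inducible PSMB9, PSMB10, PSME1 and PSME2, the ATPase gene PSMC1 that fell, and PSMC4, an ATPase gene of the same ring with a fold change of the opposite sign. They are RefSeq sequences of build GRCh38.p14, from 250 bases before to 50 bases after the RefSeq gene start, and each is written along the gene's own strand. For PSMB9 this start lies inside the longer span that GENCODE gives the gene below. Capitals mark matches, on either strand, to 2 loose letter patterns. These are GAAANNGAAA, a core of the interferon-stimulated response element, and TGACNNNGC, a core of the antioxidant response element, to which NFE2L1 also binds.
PSMB9, chr6:32853942-32854241, plus strand: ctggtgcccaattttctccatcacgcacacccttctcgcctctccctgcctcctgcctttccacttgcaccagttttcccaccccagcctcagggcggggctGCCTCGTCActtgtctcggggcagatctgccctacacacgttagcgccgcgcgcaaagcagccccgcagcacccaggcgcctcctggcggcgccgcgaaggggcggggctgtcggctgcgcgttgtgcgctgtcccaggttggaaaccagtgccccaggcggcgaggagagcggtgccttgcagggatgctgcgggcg
PSMB10, chr16:67936801-67937100, minus strand: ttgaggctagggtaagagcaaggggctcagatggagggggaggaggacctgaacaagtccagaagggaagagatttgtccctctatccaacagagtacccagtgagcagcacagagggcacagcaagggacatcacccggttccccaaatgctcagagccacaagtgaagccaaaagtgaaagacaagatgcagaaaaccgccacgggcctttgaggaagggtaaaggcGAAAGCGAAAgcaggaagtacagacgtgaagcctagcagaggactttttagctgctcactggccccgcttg
PSME1, chr14:24135944-24136243, plus strand: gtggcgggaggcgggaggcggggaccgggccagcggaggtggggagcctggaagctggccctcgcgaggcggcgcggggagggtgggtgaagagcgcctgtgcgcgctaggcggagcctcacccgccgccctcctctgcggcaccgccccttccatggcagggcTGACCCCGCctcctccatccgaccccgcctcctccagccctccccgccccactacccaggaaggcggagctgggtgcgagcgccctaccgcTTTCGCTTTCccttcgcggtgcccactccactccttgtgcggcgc
PSME2, chr14:24146561-24146860, minus strand: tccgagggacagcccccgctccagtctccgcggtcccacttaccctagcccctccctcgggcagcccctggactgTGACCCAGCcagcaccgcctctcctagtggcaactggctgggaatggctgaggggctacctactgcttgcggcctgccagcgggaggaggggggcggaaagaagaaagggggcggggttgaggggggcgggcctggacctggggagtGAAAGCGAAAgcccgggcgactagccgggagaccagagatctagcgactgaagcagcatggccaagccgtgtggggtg
PSMC1, chr14:90256303-90256602, plus strand: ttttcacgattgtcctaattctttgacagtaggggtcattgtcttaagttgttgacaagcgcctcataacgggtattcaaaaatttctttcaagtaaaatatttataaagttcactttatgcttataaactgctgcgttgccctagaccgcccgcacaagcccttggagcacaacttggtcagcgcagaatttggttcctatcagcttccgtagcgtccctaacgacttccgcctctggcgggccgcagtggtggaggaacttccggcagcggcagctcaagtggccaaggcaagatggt
PSMC4, chr19:39970915-39971214, plus strand: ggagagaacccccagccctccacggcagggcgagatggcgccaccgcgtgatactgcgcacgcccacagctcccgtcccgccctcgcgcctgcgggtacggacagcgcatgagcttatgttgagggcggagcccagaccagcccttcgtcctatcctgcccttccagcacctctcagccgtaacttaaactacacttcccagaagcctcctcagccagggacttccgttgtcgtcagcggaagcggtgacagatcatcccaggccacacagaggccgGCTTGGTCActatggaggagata

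Promoters were at hand for 42 of the 48 members, the 5 inducible ones included. The interferon-type pattern was in 3 of 5 inducible promoters (PSMB10, PSME1 and PSME2) and in 6 of 42 members, against 3.65% of 27305 promoters of the same length. Both capital runs of PSME2 and of PSME1 show this pattern and the antioxidant-type pattern, on a pair of neighbouring genes on chromosome 14. The antioxidant-type pattern was in 13 of 42 member promoters, which is 31.0%, against 13.6% of all, and its hit in PSMB9 is the only capital run there. That pattern also marks PSMC4. Neither pattern lay in the windows of PSMB8 and PSMC1, which says only that these letters are not in these 300 bases. These matches are letter counts in sequence and not measured binding. The 11 tested members with the antioxidant-type pattern had a median log2 fold change of -0.07, against -0.20 in the 25 tested members without it. For the interferon-type pattern the medians were -0.03 in the 6 tested members with it and -0.22 in the 30 without.

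In AGS cells the proteasome genes ranged from absent to among the well expressed genes. PSMA7, an alpha subunit, stood highest among the constitutive members, at 165, 202 and 170.3 FPKM in siNC. The inducible activator gene PSME1 stood at 128, 139 and 129.5 FPKM in siNC. The catalytic genes PSMB5, PSMB6 and PSMB7 had means of 109, 71.1 and 65.4 FPKM in siNC, while the inducible PSMB8, PSMB9 and PSMB10 had means of 31.9, 18.1 and 5.46 FPKM. All 3 inducible catalytic genes thus stood below their constitutive counterparts in all 6 libraries. Together the 48 genes made up 0.590, 0.644 and 0.608% of the summed FPKM in siNC and 0.597, 0.662 and 0.601% in siRBM8A, and these ranges overlap.

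**Figure D1:**
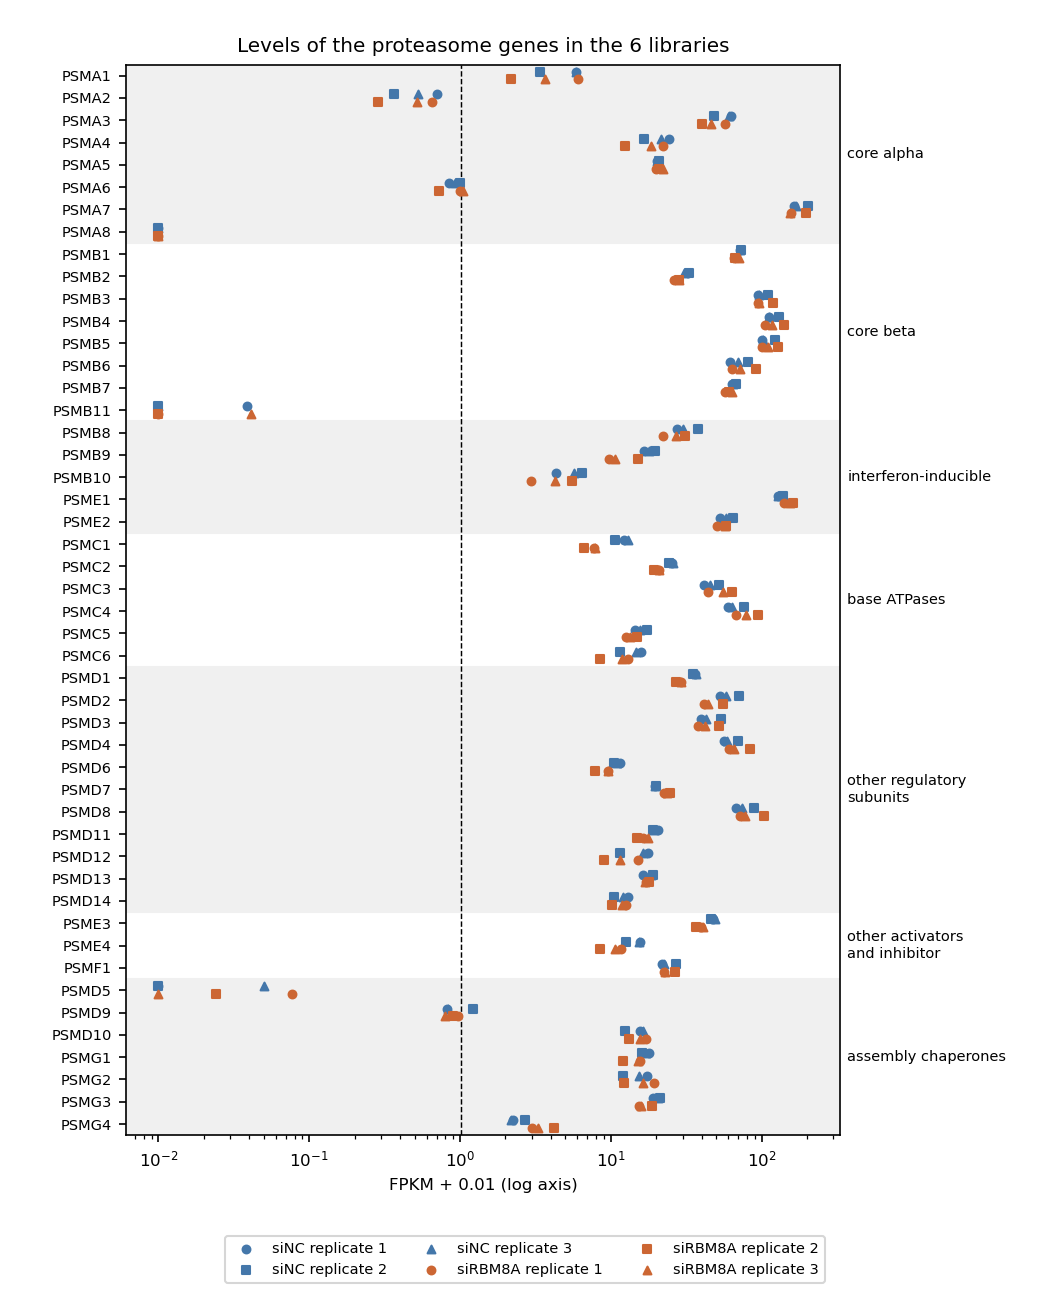
FPKM of all 48 proteasome genes in the 6 libraries, by role, on a log axis with 0.01 added; points are single libraries, blue for siNC and orange for siRBM8A, and the dashed line marks the minimum mean of 1 FPKM for testing. PSMA8, PSMB11 and PSMD5 lie at or near 0, PSMA2, PSMA6 and PSMD9 lie close to the line, and the other 42 genes lie to its right.

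Testing was limited to genes whose 6 libraries averaged 1 FPKM or more, and 42 members passed. PSMA8, the alpha subunit of the testis, was listed at 0 FPKM in every library, which allows at most 0.104 FPKM at 3 fragments per library. PSMB11, the beta subunit of the thymus, had 1 fragment in each group. PSMD5, a chaperone of the regulatory particle, had 0 to 5 fragments per library. The means of PSMA2, PSMA6 and PSMD9 were 0.498, 0.914 and 0.911 FPKM, from 24 to 168 fragments per library. In the annotation, 14.6% of the PSMA2 exon bases and 14.1% of those of PSMA6 are shared with another gene on the same strand, and 19.9% of those of PSMD9. How the counting treated such shared bases was not given in the sources used here, and its part in these low values was not tested. The core needs PSMA2 and PSMA6 as alpha subunits, so their values are not read as subunit amounts.

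Among the 42 tested members, 1 was lower and 0 were higher in siRBM8A at a limma adjusted p under 0.05, with p-values adjusted by Benjamini-Hochberg over 12678 genes. Of all tested genes, 3.19% were called lower and 2.41% higher. The gene that fell was PSMC1. At an unadjusted limma p under 0.05 there were 9 members lower and 2 higher, against 13.9% and 12.3% of all tested genes. In either direction these were 11 of 42, near the 26.3% of all tested genes, with more of them lower. Limma-voom on fragments recovered from the FPKM values also called 1 lower and 0 higher. Fold changes were taken after adding 1 to each FPKM value and going to log2, so those of low genes are understated. Of the tested members, 27 had a negative and 15 a positive log2 fold change, against 6522 and 6156 of the 12678 tested genes. The median over all 42 was -0.10 and over the 37 constitutive ones -0.09, beside -0.01 over all tested genes.

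Libraries numbered 1 and those numbered 2 deviated together, at correlations of 0.507 and 0.663. Those numbered 3 did so only weakly, at 0.102, below the 0.258 of siNC 3 with siRBM8A 1. A second fit that blocks on the replicate number stands beside the first. In it 19 members were lower and 6 higher, on a background of 21.3% lower and 18.9% higher among all genes. Without a model, all siRBM8A libraries lay below all siNC libraries for 13 members and above them for 3, against 16.5% and 14.8% of all tested genes. The 13 were PSMB1, PSMB2, PSMB7, PSMB9, PSMC1, PSMC2, PSMD1, PSMD6, PSMD11, PSME3, PSME4, PSMG1 and PSMG3, and the 3 were PSME1, PSMD7 and PSMG4. With limma-voom and the block the counts were 18 lower and 7 higher, against 23.1% and 25.4% of all genes. These p-values cover the spread between the cultures of this experiment.

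**Figure D2:**
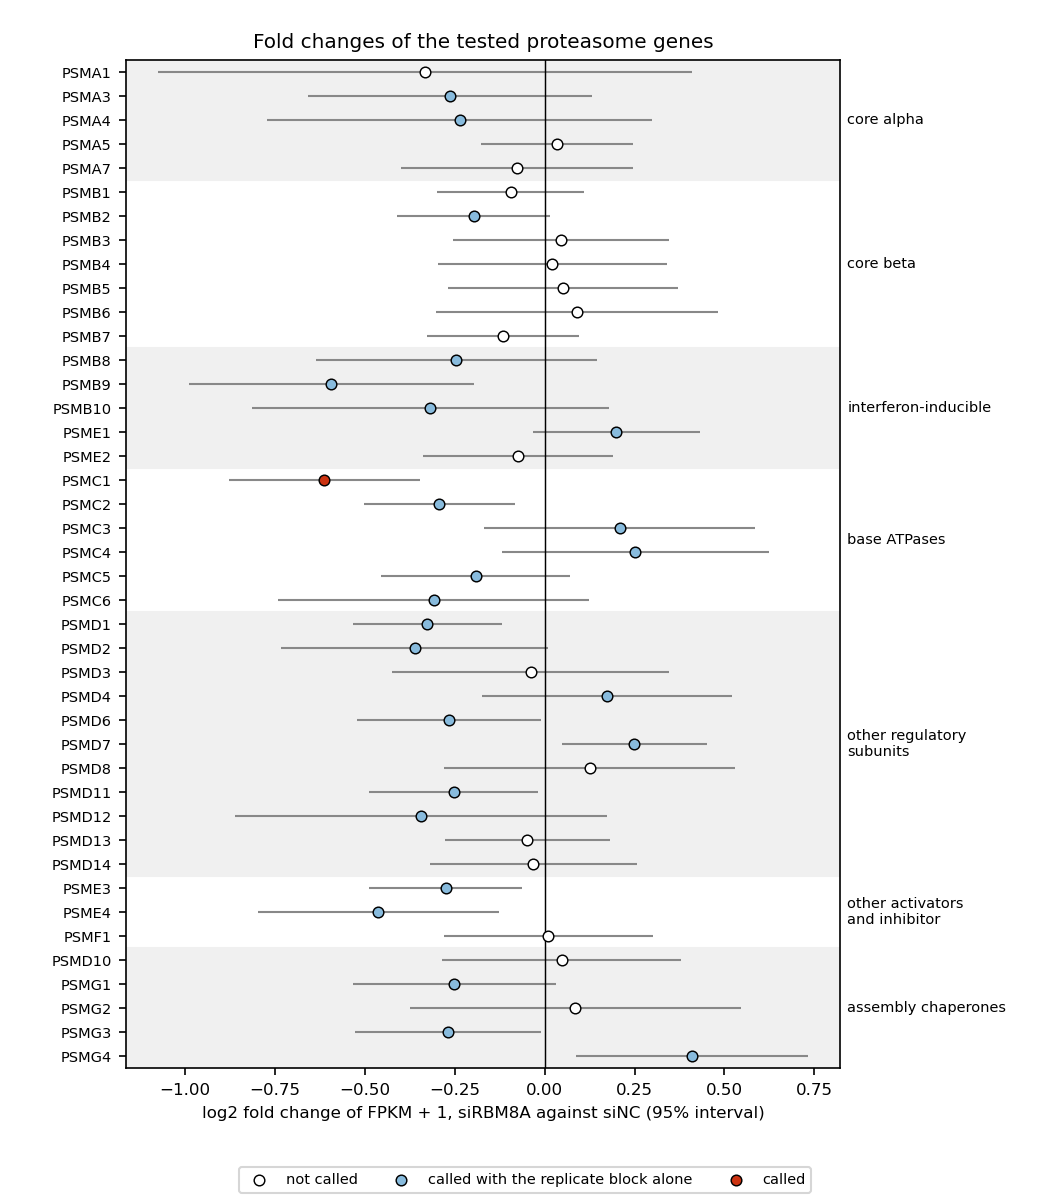
Log2 fold change of FPKM + 1 between siRBM8A and siNC for the 42 tested members, by role, with 95% limma intervals; red marks the gene called lower, blue those called with the replicate block alone, white those called in neither fit. PSMC1 is the red point at -0.61, PSMB9 lies close to it at -0.59, and PSMG4 lies farthest right at 0.41.

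The inducible catalytic subunits are described first. PSMB9, which takes the place of PSMB6, lies in the class II region of the HLA locus at chr6:32844136-32859585 in GRCh38. It stood at 16.7, 19.7 and 18.0 FPKM in siNC and at 9.72, 15.2 and 10.7 FPKM in siRBM8A. All siRBM8A libraries lay below all siNC libraries, with replicate 2 the highest of each group. The log2 fold change was -0.59 (SE 0.17), and the limma adjusted p was 0.0853. With the replicate block the adjusted p was 0.00665. PSMB9 was called lower in 5 of 19 alternative settings. When 1 library was left out, it was called only without siRBM8A replicate 2, at a limma adjusted p of 0.0222. Without 1 of the other libraries the limma adjusted p was 0.131 to 0.260.

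PSMB8, the inducible form of PSMB5, lies beside PSMB9 at chr6:32840717-32844703. It measured 27.6, 38.0 and 30.0 FPKM in siNC and 22.2, 30.9 and 27.0 FPKM in siRBM8A. The groups overlapped, since siRBM8A replicate 2 exceeded siNC replicates 1 and 3, but each siRBM8A library was below the siNC library of its number. The log2 fold change was -0.25 (SE 0.17), with a limma adjusted p of 0.393, and of 0.0178 with the block. Leaving out 1 library moved it between -0.35, without siRBM8A replicate 2, and -0.12, without siNC replicate 2. Of the PSMB8 exon bases, 20.6% are covered on the opposite strand by PSMB8-AS1 or PSMB9. The antisense gene itself had a log2 fold change of 0.39, the opposite sign, and was not called at a limma adjusted p of 0.216. Whether counting used the strand was not given in the sources used here, so reads of these partners cannot be told apart.

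PSMB10, the inducible form of PSMB7, lies at chr16:67934502-67937087 and was the lowest of the inducible set. It measured 4.32, 6.40 and 5.68 FPKM in siNC and 2.96, 5.52 and 4.26 FPKM in siRBM8A. Those ranges overlapped, and replicate 2 was the highest of each group. Its log2 fold change was -0.32 (SE 0.21), with a limma adjusted p of 0.383, and of 0.0231 with the block. Leaving out 1 library moved it between -0.49, without siRBM8A replicate 2, and -0.13, without siRBM8A replicate 1. PSMB10 rests on 498 fragments over the siNC libraries and 379 over the siRBM8A libraries, fewer than any other inducible member. On the same strand, 34.8% of its exon bases are shared with AC040162.1, which stood between 0.186 and 0.301 FPKM.

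Among the activator genes the signs differed. PSME1 measured 128, 139 and 129.5 FPKM in siNC and 140.1, 163 and 154 FPKM in siRBM8A. All siRBM8A libraries lay above all siNC libraries, by a narrow margin between siRBM8A replicate 1 and siNC replicate 2. Its log2 fold change was 0.20 (SE 0.10), with a limma adjusted p of 0.247, and of 0.0219 with the block. PSME2, the other subunit of the same ring, measured 53.2, 64.7 and 57.8 FPKM in siNC and 51.0, 58.4 and 57.1 FPKM in siRBM8A. These groups overlapped, and PSME2 was called in neither fit, with a log2 fold change of -0.07 (SE 0.11), a 95% interval from -0.34 to 0.19 and a limma adjusted p of 0.713. The promoters of both carry the same pair of letter patterns, as printed above.

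The constitutive catalytic genes give the comparison within each library. PSMB5 measured 100.5, 124 and 103 FPKM in siNC and 100.1, 129 and 110.1 FPKM in siRBM8A. PSMB6 measured 62.0, 81.7 and 69.5 FPKM in siNC and 64.0, 92.0 and 72.4 FPKM in siRBM8A. In both genes the groups overlapped, and replicate 2 was the highest of each group. PSMB7 measured 64.1, 67.4 and 64.7 FPKM in siNC and 57.2, 60.5 and 63.4 FPKM in siRBM8A, without overlap. None of the 3 was called in either fit, with log2 fold changes of 0.05, 0.09 and -0.12 and limma adjusted p of 0.842, 0.768 and 0.453.

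Set against its counterpart, PSMB9 was lower in siRBM8A in every library. The level of PSMB9 was 26.9, 24.1 and 25.9% of that of PSMB6 in siNC and 15.2, 16.5 and 14.7% in siRBM8A. Replicate 2 was the lowest of siNC and the highest of siRBM8A here, and the log2 ratio differed by -0.73, against a standard deviation between replicates of 0.08 in each group. PSMB8 was 27.5, 30.7 and 29.2% of PSMB5 in siNC and 22.2, 24.0 and 24.5% in siRBM8A, again without overlap, and the log2 ratio differed by -0.31 with standard deviations of 0.08. PSMB10 was 6.73, 9.48 and 8.78% of PSMB7 in siNC and 5.16, 9.13 and 6.72% in siRBM8A, with overlap and a log2 difference of -0.27. Two-sided exact permutation tests over the 20 ways to split 3 against 3 libraries gave p = 0.1, 0.1 and 0.4, adjusted over the 3 ratios to 0.15, 0.15 and 0.4, and 0.1 is the smallest p this design allows. The ratios compare messenger RNA per unit of annotated exon length and not assembled particles. That length is 3072 bases for PSMB9 and 1448 for PSMB6, which had 2741 and 5063 fragments over the siNC libraries. The percentages therefore depend on the annotation, while the length is the same in both groups.

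**Figure D3:**
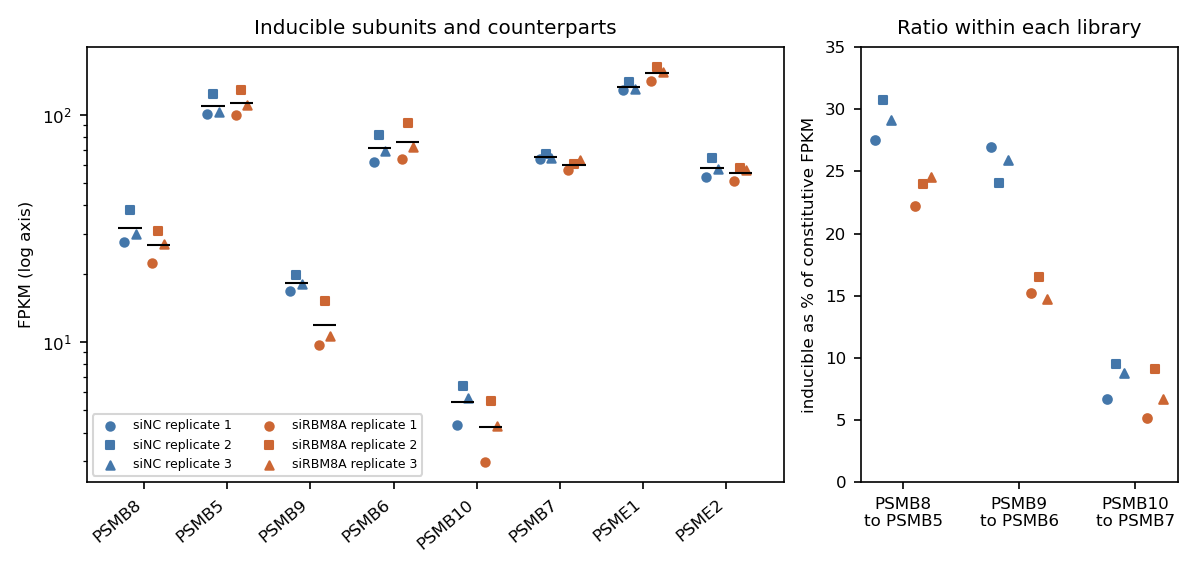
Left, FPKM on a log axis of the inducible catalytic genes, each beside its constitutive counterpart, and of PSME1 and PSME2; right, each inducible gene as a percentage of its counterpart within the same library. Points are single libraries and black lines group means; the PSMB9 ratio lies between 24.1 and 26.9% in siNC and between 14.7 and 16.5% in siRBM8A.

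The ATPase ring of the regulatory particle held the member that fell. PSMC1, ATPase subunit Rpt2, lies at chr14:90256495-90275429 in GRCh38. It measured 12.2, 10.6 and 12.9 FPKM in siNC (11.9 ± 1.17, SD, n = 3) and 7.72, 6.68 and 7.90 FPKM in siRBM8A (7.44 ± 0.659, SD, n = 3). The groups were apart, and the siRBM8A mean was 62.4% of the siNC mean. The log2 fold change was -0.61 (SE 0.11), from 3623 fragments in siNC and 2216 in siRBM8A, with a limma adjusted p of 0.0323. It was called in 13 of 19 alternative settings, the replicate block among them at an adjusted p of 0.00195. The call was lost without siNC replicate 1, 2 or 3 and without siRBM8A replicate 1 or 3, with adjusted p of 0.0560 to 0.170 and log2 fold changes of -0.69 to -0.56. It was lost as well when no filter on low genes was applied, at an adjusted p of 0.0735. The fits without 1 of those libraries called 0 to 1.70% of all tested genes lower. With no filter this share was 0.470%, and in the first fit 3.19%.

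Reads of other genes can bear on PSMC1. NRDE2 lies on the opposite strand and covers 75.8% of the PSMC1 exon bases. NRDE2 stood at 1.73, 1.92 and 2.00 FPKM in siNC and at 1.70, 1.77 and 1.97 FPKM in siRBM8A, a log2 fold change of -0.03 that was not called. The processed copy PSMC1P1 on chromosome 3 stood at 1.95 to 2.13 FPKM in siNC and at 1.82 to 2.36 FPKM in siRBM8A and was not called either. How fragments were divided among the 3 genes was not tested.

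The 5 other ATPase genes went both ways and were called with the block alone. That fit called 21.3% of all tested genes lower and 18.9% higher. PSMC4, ATPase subunit Rpt3, had the highest fold change of the ring, with 59.5, 76.8 and 64.1 FPKM in siNC and 67.3, 94.3 and 78.7 FPKM in siRBM8A. The groups overlapped, since siNC replicate 2 exceeded siRBM8A replicate 1, and the log2 fold change was 0.25 (SE 0.16) with a limma adjusted p of 0.354, and of 0.0119 with the block. PSMC3 had a log2 fold change of 0.21, and PSMC2, PSMC5 and PSMC6 had -0.29, -0.19 and -0.31. PSMC2 was the only one of the 5 whose groups did not overlap, at 24.2 to 25.7 FPKM in siNC and 19.3 to 21.0 FPKM in siRBM8A. With the GC correction described further on, PSMC2, PSMC3 and PSMC6 had -0.11, 0.13 and -0.12. With the block added their limma adjusted p were 0.0889, 0.0673 and 0.0558. PSMC4 and PSMC5 had 0.18 and -0.19 with the correction, at limma adjusted p of 0.0129 and 0.0163 with the block added. Genes of a ring in which each ATPase occupies its own place thus had opposite signs in the same libraries.

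Among the 11 other genes of the regulatory particle, 0 were called. With the block 5 were lower and 2 higher, against 21.3% and 18.9% of all tested genes. PSMD2, the scaffold subunit Rpn1, had the lowest log2 fold change, with 53.0, 70.7 and 58.2 FPKM in siNC and 41.3, 55.6 and 44.1 FPKM in siRBM8A. Only siRBM8A replicate 2 reached into the siNC range, and the log2 fold change was -0.36 (SE 0.16), with a limma adjusted p of 0.200, and of 0.00355 with the block. PSMD1, the other scaffold subunit, had groups that did not overlap, at 35.3 to 36.5 FPKM in siNC and 26.9 to 29.3 FPKM in siRBM8A, with a limma adjusted p of 0.0758, and of 0.00532 with the block. PSMD7, the partner of the deubiquitinase PSMD14, had the highest, with 19.6, 19.9 and 19.7 FPKM in siNC and 22.7, 24.5 and 23.7 FPKM in siRBM8A. The siNC libraries of PSMD7 lay close together and below all siRBM8A libraries. Its log2 fold change was 0.25 (SE 0.09), with a limma adjusted p of 0.128, and of 0.0120 with the block. AC009120.2 on the opposite strand covers 30.7% of the PSMD7 exon bases. PSMD14 itself had a log2 fold change of -0.03 and the ubiquitin receptor PSMD4 one of 0.17, and neither was called in the first fit. Of the other subunits, PSMD6, PSMD11 and PSMD12 had log2 fold changes of -0.27, -0.25 and -0.34 and were lower with the block. With the GC correction described further on, PSMD6 and PSMD12 had -0.07 and -0.13, and with the block added their limma adjusted p were 0.289 and 0.128. PSMD3, PSMD8 and PSMD13 had -0.04, 0.13 and -0.05 and were called in neither fit.

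In the core, of the 5 tested alpha genes 0 were called, and with the block PSMA3 and PSMA4 were lower, with log2 fold changes of -0.26 and -0.24. With the GC correction these were -0.04 and -0.13, and with the block added the limma adjusted p were 0.612 and 0.0748. PSMA1 had the lowest log2 fold change, -0.33 (SE 0.31), from 5.88, 3.40 and 5.87 FPKM in siNC and 6.08, 2.18 and 3.63 FPKM in siRBM8A. Its libraries numbered 2 were the lowest of both groups, and the 2 groups overlapped. PSMA5 had the highest, 0.03 (SE 0.09), at 20.4, 20.8 and 20.2 FPKM in siNC and 19.9, 20.9 and 22.3 FPKM in siRBM8A. PSMA7 lay between them at -0.08. The beta genes had a median log2 fold change of 0.02 over 7 tested, with PSMB1, PSMB3 and PSMB4 at -0.09, 0.05 and 0.02. PSMB2 was lowest among them, with 32.4, 33.2 and 30.5 FPKM in siNC and 26.4, 28.4 and 28.5 FPKM in siRBM8A, a log2 fold change of -0.20 (SE 0.09), a limma adjusted p of 0.218, and of 0.0360 with the block. PSMB6, described above, was highest.

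The remaining activators and the inhibitor were tested as 3 genes, with 0 called. PSME4, a large activator of nuclear proteasomes, measured 15.5, 12.7 and 15.4 FPKM in siNC and 11.6, 8.51 and 10.7 FPKM in siRBM8A. These groups did not overlap, and the log2 fold change was -0.46 (SE 0.14), with a limma adjusted p of 0.102, and of 0.00372 with the block. PSME3, a nuclear relative of PSME1 and PSME2, stood at 46.1 to 48.8 FPKM in siNC and at 36.9 to 41.1 FPKM in siRBM8A, with an adjusted p of 0.118, and of 0.00724 with the block. PSMF1, an inhibitor of the core in vitro, had 21.8, 27.1 and 22.5 FPKM in siNC and 22.5, 26.5 and 22.8 FPKM in siRBM8A, and its log2 fold change was 0.01 with a 95% interval from -0.28 to 0.30. PSME3 and PSME4 had all siRBM8A libraries below all siNC libraries, as 16.5% of all tested genes did, and PSMF1 did not. With 3 genes, no contrast between activators and inhibitor is drawn.

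Among the assembly chaperones, PSMG4 and PSMG3 had opposite signs. PSMG4 measured 2.22, 2.70 and 2.15 FPKM in siNC and 2.98, 4.17 and 3.28 FPKM in siRBM8A, all above the siNC libraries. Its log2 fold change was 0.41 (SE 0.14), the highest of all tested members, with a limma adjusted p of 0.120, and of 0.0136 with the block. PSMG3, which acts in a pair with PSMG4 during assembly of the alpha ring, went the other way, with 19.02, 21.3 and 20.4 FPKM in siNC and 15.4, 18.7 and 15.9 FPKM in siRBM8A. Its log2 fold change was -0.27 (SE 0.11), with a limma adjusted p of 0.178, and of 0.0153 with the block. The PSMG1 and PSMG2 pair also differed in sign, at -0.25 and 0.09, of which PSMG1 alone was called with the block, at an adjusted limma p of 0.0302, and the chaperone PSMD10 had 0.05. PSMG4 is the lower of its pair in FPKM, with 10418 annotated exon bases against 1960 for PSMG3. Over the siNC libraries PSMG4 had 1208 fragments and PSMG3 1954. Of the PSMG4 exon bases, 15.0% are covered by genes on the opposite strand.

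The libraries numbered 2 stood apart for most members in both groups. Relative to the mean of replicates 1 and 3, replicate 2 was higher in both groups for 24 of the 42 tested members, lower in both for 16 and mixed for 2. Across these 42 genes the deviation of replicate 2 in siNC followed that in siRBM8A, with a Pearson r of 0.959 and a Spearman rho of 0.936, given as a description since genes of the same libraries are not independent. The 24 genes higher in replicate 2 had a median transcript GC content of 52.9% and the 16 lower ones a median of 41.8%. GC content correlated with the deviation at r = 0.669 in siNC and 0.675 in siRBM8A, and with the log2 fold change at r = 0.298. PSMB8, PSMB10, PSMD2 and PSMC4 were among the high genes and PSMA1, PSMA4, PSMC6 and PSMD12 among the low ones.

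**Figure D4:**
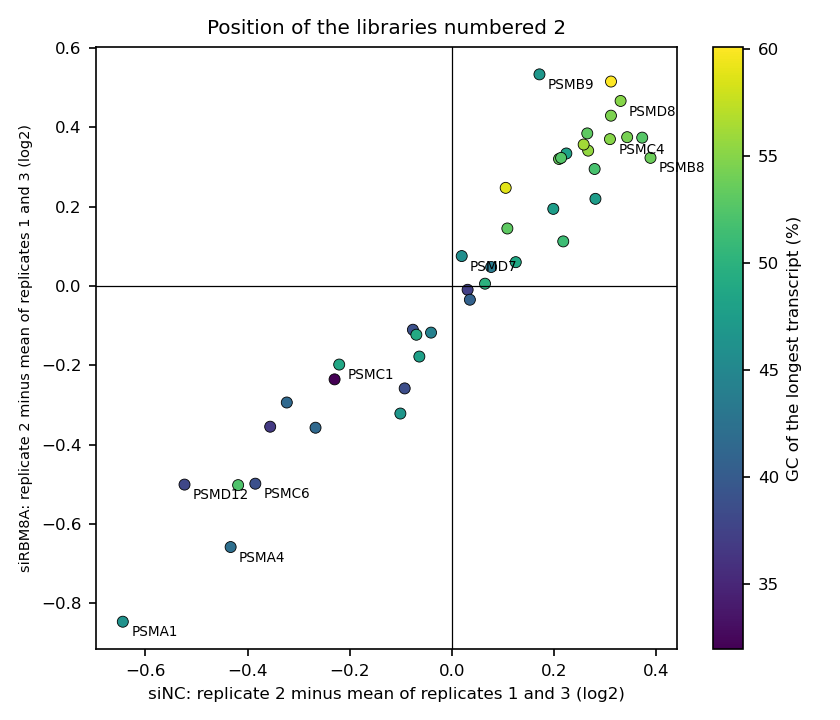
Log2(FPKM + 1) of replicate 2 minus the mean of replicates 1 and 3, in siNC (x axis) and siRBM8A (y axis), for the 42 tested members coloured by transcript GC content. The points run from PSMA1 at the lower left to the GC-rich genes at the upper right, with r = 0.959.

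When each library was corrected for GC content, 9 members were lower and 3 higher, on a background of 16.2% lower and 15.7% higher among all genes. The lower ones were PSMB8, PSMB10, PSMC1, PSMD1, PSMD2, PSMD11, PSME3, PSME4 and PSMG3, and the higher ones PSME1, PSMD7 and PSMG4. PSMB9 was just outside with an adjusted p of 0.0503. With the correction and the block together 14 were lower and 6 higher, against 20.7% and 19.9% of all genes. Of the 19 members lower with the block, 12 were lower in that fit too, and PSMA3, PSMA4, PSMB2, PSMC2, PSMC6, PSMD6 and PSMD12 were not, while PSMA7 and PSMB7 were added. Of the 6 higher, 4 were higher in that fit too, PSMC3 and PSMD4 were not, and PSMA5 and PSMD14 were added. Without both libraries numbered 2, the 5 members called lower were PSMB9, PSMC1, PSMD1, PSMD2 and PSME4. That setting called 7.92% of all tested genes lower and 6.49% higher. PSMC1 was thus called with the block, with the GC correction and without the libraries numbered 2.

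**Figure D5:**
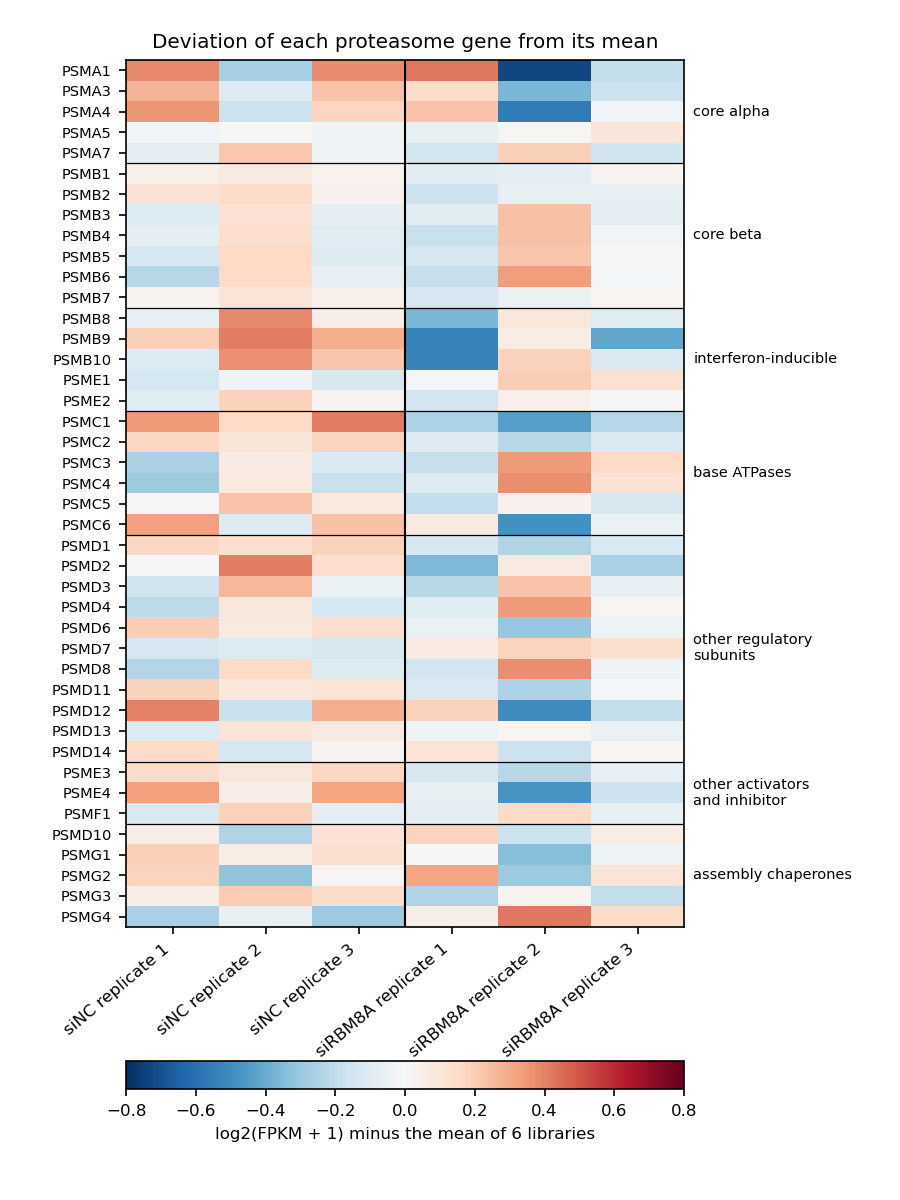
Deviation of log2(FPKM + 1) of each tested member from its mean over the 6 libraries, by role, red above and blue below; the black line parts siNC from siRBM8A. PSMC1 changes colour between the groups, PSMB9 does so except for siRBM8A replicate 2, which lies just above its mean, and PSMA1, PSMA4 and PSMD12 are lowest in replicate 2 of both groups.

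Genes that work with the proteasome were read from lists of related factors, with the same fit. Of 12 proteasome-associated factors, 1 rose and 0 fell, against 2.41% and 3.19% of all tested genes. PITHD1, which carries a proteasome-interacting thioredoxin-type domain, went from 20.4, 18.7 and 19.05 FPKM in siNC to 28.3, 26.6 and 28.2 FPKM in siRBM8A, with a log2 fold change of 0.49 (SE 0.09) and a limma adjusted p of 0.0310. Without 1 library other than siRBM8A replicate 2, its adjusted p was 0.0624 to 0.174. Those fits called 0.0158 to 1.44% of all tested genes higher. Named after their values were seen, USP14, a deubiquitinase bound to the regulatory particle, stood at 25.9 to 34.5 FPKM in siNC and 14.3 to 21.8 FPKM in siRBM8A with a limma adjusted p of 0.0590, and of 0.00175 with the block. Likewise named afterwards, POMP, the maturation factor of the core, had a log2 fold change of -0.47 and a limma adjusted p of 0.229, and of 0.00221 with the block. With the GC correction USP14 had -0.53 and POMP -0.22, at limma adjusted p of 0.000725 and 0.0521. With the block, 6 of the 12 were lower and 2 higher, against 21.3% and 18.9% of all tested genes.

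Of 11 genes of the NRF1 pathway, 1 rose and 0 fell, against 2.41% and 3.19% of all tested genes. With the block 5 were higher and 2 lower, against 18.9% and 21.3% of all tested genes. UFD1, which works with the unfoldase VCP, went from 6.10, 6.20 and 6.02 FPKM in siNC to 9.74, 10.2 and 10.1 FPKM in siRBM8A, with a log2 fold change of 0.63 (SE 0.08) and a limma adjusted p of 0.0151. The call was lost without siNC replicate 1, 2 or 3 or siRBM8A replicate 3, at adjusted p of 0.0567 to 0.113. Those fits called 0.0158 to 0.544% of all tested genes higher. NFE2L1 itself, named after its values were seen, measured 39.6, 49.2 and 43.7 FPKM in siNC and 53.3, 71.9 and 61.6 FPKM in siRBM8A. Its groups did not overlap, and the log2 fold change was 0.48 (SE 0.14), with a limma adjusted p of 0.0928, and of 0.00236 with the block. The unfoldase VCP and the deglycosylase NGLY1, which process the NFE2L1 protein and were also named after their values were seen, had log2 fold changes of -0.35 and -0.45 in groups that did not overlap. Their limma adjusted p were 0.153 and 0.0907, and 0.00394 and 0.0110 with the block. With the GC correction VCP had -0.40 and NGLY1 -0.22, at limma adjusted p of 0.00786 and 0.195. VCP and NGLY1 were the only 2 of the 11 genes with a negative log2 fold change, and 9 had a positive one. Among the 9, SYVN1 and DDI2, likewise named afterwards, had 0.54 and 0.20. Their limma adjusted p were 0.0917 and 0.422, and 0.00269 and 0.0384 with the block. With the GC correction they had 0.46 and 0.31, at limma adjusted p of 0.00313 and 0.00749. Of the 37 tested constitutive members, 23 had a negative log2 fold change and 14 a positive one, against 6522 and 6156 of all tested genes. A link between these signs and the NRF1 pathway genes was not tested.

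Of 14 interferon-inducible genes of antigen processing and signalling, 0 were called and 5 had an unadjusted limma p under 0.05, against 26.3% of all tested genes in either direction. With the block 8 were lower and 0 higher, against 21.3% and 18.9% of all tested genes. The groups of 7 did not overlap, all lower in siRBM8A, against 16.5% of all tested genes. TAP1, the peptide transporter gene beside PSMB9, measured 40.2, 59.6 and 47.4 FPKM in siNC and 25.4, 34.6 and 27.8 FPKM in siRBM8A, with a log2 fold change of -0.72 (SE 0.18) and a limma adjusted p of 0.0627, and of 0.00149 with the block. IRF1, the transcription factor that binds interferon-type response elements, measured 5.54, 7.23 and 6.32 FPKM in siNC and 3.96, 4.66 and 3.94 FPKM in siRBM8A, with a log2 fold change of -0.50 (SE 0.12) and a limma adjusted p of 0.0599, and of 0.00485 with the block. The median of the list was -0.23, and that of the 5 inducible proteasome members -0.25.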

How the data were processed

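Expression in 6 AGS libraries was taken from the gene table of FPKM values that the authors deposited. HISAT2, StringTie and the build GRCh38 are named in the submitters' processing notes, per the labels; versions, strand setting, filters and treatment of shared reads were not given in the sources used here. All 58735 gene identifiers matched GENCODE release 29, whose exon lengths turned 100% of the deposited FPKM values into whole fragments within 0.001, giving 14838527 to 16561306 fragments per library; floors of 3 fragments cover counting error only. Computed here were log2(FPKM + 1), a mean filter of 1 FPKM leaving 12678 genes, and limma 3.58.1 (R 4.3.3) with a variance trend on the 2 groups of 3 and Benjamini-Hochberg adjustment at 0.05. Ratios were tested by exact permutation (scipy 1.17.1). Scripts were tested on simulated data. GC content is that of the longest transcript, with loess of span 0.3 for its correction.

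The members and lists were chosen with earlier results of these data known. Values in every library are given for called members, the 5 inducible members, their 3 counterparts and the lowest and highest fold change of each role; from the 5 related lists, called genes are named, or the 2 with the smallest p where none was called. Other genes were named after their values were seen.

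Same-numbered libraries were checked for pairing. Deviations from group means correlated across genes at 0.507, 0.663 and 0.102 for numbers 1, 2 and 3, all over 0.1. Number 3 was not its own best match, since siNC 3 with siRBM8A 1 gave 0.258 and siNC 1 with siRBM8A 3 gave 0.187. By the limit of 0.1 for every pair the numbers were treated as pairs on the evidence of the data, not of the labels. The 19 alternative settings covered pseudocount, filter, scaling, trend, biotype, block, recovered fragments, GC and left-out libraries.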

Additional observations from a re-analysis of the deposited data

How the results depend on the processing

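The count of members called lower was 1, and it became 0 with no filter, 19 with the replicate block, 18 with limma-voom and the block, 9 with the GC correction, 14 with the GC correction and the block, 5 without both libraries numbered 2, and 0 to 2 without 1 library. Of all genes tested, 0.470% were lower with no filter, 7.92% without both libraries numbered 2, and 0 to 2.91% without 1 library. The count called higher was 0, and it became 6 with the replicate block, 7 with limma-voom and the block, 3 with the GC correction and 6 with both; at 0 the unadjusted limma count was 2. The block leaves the fold changes as they are, so it reversed none. The median log2 fold change of the constitutive members, -0.09, became -0.0492 at equal FPKM sums, -0.0642 with limma-voom, -0.0638 with limma-voom and the block, and -0.129 to -0.0779 without 1 library. RBM8A ranged from -2.05 to -1.83 without 1 library.

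Signs reversed only for members with small fold changes. With the GC correction PSMB1 became 0.0391, PSMB3 -0.0188 and PSMD14 0.256, and the last was called at a limma adjusted p of 0.0457 when the block was added. At equal FPKM sums PSMD3 became 0.00627 and PSMD14 0.0111, and without both libraries numbered 2 PSMB4 became -0.0153. Without 1 library the log2 fold change ranged from -0.00620 to 0.0723 for PSMA5, -0.191 to 0.0116 for PSMA7, -0.0609 to 0.116 for PSMB3, -0.0900 to 0.115 for PSMB4, -0.0474 to 0.144 for PSMB5, -0.0526 to 0.206 for PSMB6, -0.163 to 0.0856 for PSMD3, -0.0297 to 0.236 for PSMD8, -0.108 to 0.0471 for PSMD14, -0.0633 to 0.104 for PSMF1, -0.0608 to 0.145 for PSMD10 and -0.0540 to 0.253 for PSMG2. The cause was not tested. Of the settings by member, 676 kept sign and side of the threshold, 82 gained a call, 6 lost one (all PSMC1) and 31 reversed, among them PSMD14, which also gained a call. The 3 ratios kept their sign under each alternative run. Depth limits PSMA8, PSMB11 and PSMD5, which had 0 to 5 fragments per library.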

Other observations

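Other genes of ubiquitin handling, read in the same fit, gave 0 calls. Among 10 shuttling and unfoldase factors the 2 with the smallest p had opposite signs. UBQLN1, which carries ubiquitinated proteins to the proteasome, measured 30.1, 26.6 and 28.2 FPKM in siNC and 23.6, 20.1 and 21.0 FPKM in siRBM8A, with a log2 fold change of -0.38 (SE 0.10) and a limma adjusted p of 0.0789, and of 0.00387 with the replicate block. UBXN1, a VCP cofactor, measured 23.4, 31.4 and 24.7 FPKM in siNC and 31.9, 44.3 and 34.2 FPKM in siRBM8A, with a log2 fold change of 0.46 (SE 0.17) and a limma adjusted p of 0.144, and of 0.00236 with the block. In neither gene did the groups overlap. With the GC correction UBQLN1 had -0.15 and UBXN1 0.39, at limma adjusted p of 0.371 and 0.0207.

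Among 6 ubiquitin and E1 genes, UBA1, the main ubiquitin-activating enzyme, measured 83.6, 109 and 89.4 FPKM in siNC and 51.6, 73.9 and 56.8 FPKM in siRBM8A. All siRBM8A libraries lay below all siNC libraries, with a log2 fold change of -0.63 (SE 0.17) and a limma adjusted p of 0.0732, and of 0.00175 with the block. UBA6, the second such enzyme, measured 13.2, 9.14 and 12.9 FPKM in siNC and 11.5, 5.90 and 9.21 FPKM in siRBM8A, where the groups overlapped. Its log2 fold change was -0.40, with a limma adjusted p of 0.344, and of 0.0179 with the block. With the GC correction UBA1 had -0.71 and UBA6 -0.16, at limma adjusted p of 0.000817 and 0.114. The polyubiquitin gene UBB had a log2 fold change of 0.04 and was called in neither fit.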
